A study of Mus musculus with 12 samples.

Results

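Iron handling was read from 10 genes. Their products export iron from the cell (Slc40a1), bring in transferrin-bound iron (Tfrc) or bind the receptor that does so (Hfe). They also move divalent metals across membranes (Slc11a1, Slc11a2), store iron and release it from storage (Fth1, Ftl1, Ncoa4) and sense cytosolic iron (Aco1, Ireb2). The genes were picked by gene symbol, and all 10 were present among the 13715 genes of the count table. The table holds RNA-seq of macrophages that were grown from mouse bone marrow for 7 days under 40 ng/ml M-CSF, on which macrophages depend for growth and survival. KO cultures came from LysMCre Stk11 fl/fl mice. Their Cre is made from the lysozyme M locus (Lyz2), so that the floxed Stk11 gene is deleted in myeloid cells. Stk11 encodes LKB1, a kinase upstream of AMPK. WT cultures came from mice that the labels describe as wild type and no further, and the sources used here give neither age nor sex. The 4 groups of 3 libraries were KO macrophages given 20 ng/ml IL-4 for 24 h (KO IL-4), WT macrophages given the same (WT IL-4), KO macrophages left unstimulated (KO mock) and WT macrophages left unstimulated (WT mock). IL-4 is the cytokine of alternative macrophage activation. Each genotype pair was compared in mock and again with IL-4, each IL-4 group was compared with the mock group of its genotype, and the interaction gave by how much the log2 response to IL-4 in KO exceeded the WT response.

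Macrophages take up senescent red cells, break down heme and return the iron to plasma through ferroportin, the product of Slc40a1 and the iron exporter of vertebrate cells. Transferrin receptor 1, encoded by Tfrc, brings iron into the cell, and ferritin, a shell of heavy chains (Fth1) and light chains (Ftl1), stores it. The iron regulatory proteins IRP1 (Aco1) and IRP2 (Ireb2) bind a stem-loop, the iron-responsive element, when cytosolic iron is low. In the 5′ untranslated region of a messenger this binding blocks translation, and in the 3′ untranslated region it protects the messenger from decay. RNA counts therefore bear on messenger levels and not on how much of a protein was made.

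The stem-loops are shown because their place in a messenger bears on how it is controlled. In GENCODE M21 transcripts on mouse build GRCm38 (mm10), the letters CAGTGN were searched on the transcript strand where a 5-base arm on each side could pair, G with T included, and a C preceded the first arm. The pattern was found in the 5′ untranslated region of 3 members and the 3′ untranslated region of 1, Tfrc, which held 4 copies. Of all genes of the table with such a region in the annotation, 24 of 11413 (0.21%) held it in the 5′ and 91 of 11535 (0.789%) in the 3′ untranslated region. A match is a run of letters and not a measured binding site. The strings run 5′ to 3′ with the loop in capitals.
Fth1, 5′ region, chr19:9982733-9982760, plus strand: tcctgcttcaaCAGTGCttgaacggaac
Ftl1, 5′ region, chr7:45459779-45459806, minus strand: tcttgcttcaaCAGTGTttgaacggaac
Slc40a1, 5′ region, chr1:45925465-45925492, minus strand: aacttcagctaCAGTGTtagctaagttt
Tfrc, 3′ region, copy 1, chr16:32631220-32631247, plus strand: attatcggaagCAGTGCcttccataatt
Tfrc, 3′ region, copy 2, chr16:32631599-32631626, plus strand: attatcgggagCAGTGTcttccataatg
Tfrc, 3′ region, copy 3, chr16:32631664-32631691, plus strand: tatatcggagaCAGTGAtctccatatgt
Tfrc, 3′ region, copy 4, chr16:32631711-32631738, plus strand: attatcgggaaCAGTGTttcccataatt
The arms next to the loop were the same letters in both ferritin messengers, which differed between them in the last base of the loop and outside the arms. The other 6 members held no match to this pattern. It asks for arms that pair at every base, so a stem-loop with an unpaired base in an arm would be missed. The lack of a match therefore does not place a member outside this control.

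Libraries held 30651627 to 39136822 counts, and levels below are CPM, counts normalised to library size with TMM factors. Stk11 checked the labels: it stood at 5.56 to 9.24 CPM in KO IL-4, 38.7 to 54.4 in WT IL-4, 3.87 to 8.77 in KO mock and 37.7 to 46.0 in WT mock. The KO libraries numbered 2 stood apart in Lyz2, at 43.4 CPM with IL-4 and 43.1 in mock, against 15400 to 21600 in the other KO libraries and 28500 to 44600 in WT libraries. All 10 macrophage markers were measured, and the 9 other than Lyz2 summed to 10500 to 11000 CPM in KO IL-4, 11800 to 12100 in WT IL-4, 8700 to 9850 in KO mock and 9750 to 10200 in WT mock. Between KO and WT, 1 of the 10 was called higher and 4 lower in mock, and 1 higher and 3 lower with IL-4. Of all genes, 15.7% were called higher and 18.8% lower in mock, and 8.57% and 10.2% with IL-4. Of 15 neutrophil markers 13 were measured, and their summed level was higher in KO libraries (589 to 1070 CPM in KO IL-4 and 320 to 449 in WT IL-4, 762 to 1330 in KO mock and 420 to 578 in WT mock). All 14 cell cycle genes of the list were lower in KO than in WT under both conditions. Of 11 erythroid markers 3 were measured and summed to at most 1.7 CPM in any library, while the hemoglobin genes were not analysed here. Whether the neutrophil or cell cycle genes have a part in the iron gene differences was not tested.

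KO macrophages held more messenger for the iron exporter, the ferritin heavy chain and the phagosomal metal transporter Slc11a1 than WT macrophages, both in mock and with IL-4. In mock, 7 of the 10 members passed the threshold, and the background was 34.5% of all genes. The threshold was 0.05 for the p of an edgeR quasi-likelihood test, adjusted with the Benjamini-Hochberg procedure across the 13715 genes. Of these, 6 rose (15.7% of all genes did), namely Slc40a1, Tfrc, Hfe, Slc11a1, Fth1 and Ftl1, and Ireb2 fell (18.8% of all genes did). Scaled by library size alone, 5 rose and 2 fell, with Tfrc no longer called and Ncoa4 called lower. Over all genes that scaling called 1572 higher and 2959 lower in mock, beside 2147 and 2584 with TMM scaling. With IL-4, 5 members passed, against 18.8% of all genes. All 5 rose and none fell (8.57% and 10.2% of all genes did): Slc40a1, Tfrc, Slc11a1, Fth1 and Ncoa4. Without both KO libraries numbered 2, 3 of them were called (Slc40a1, Slc11a1 and Fth1), and the count was also 3 without some of the single libraries. Over all genes the calls with IL-4 fell from 1176 higher and 1403 lower to 715 higher and 881 lower without both. The log2 fold changes of Tfrc and Ncoa4 were then 0.643 and 0.221, beside 0.64 and 0.22 in the full fit. The members' median log2 fold change was 0.34 in mock and 0.14 with IL-4, beside -0.02 and -0.01 over all genes. The 3 KO and 3 WT libraries did not overlap for 7 members in mock and 4 with IL-4, where 47.7% and 35.9% of all genes did not overlap. In these bulk libraries fewer cells of a type and less RNA per cell cannot be told apart.

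IL-4 moved the members in both directions: it lowered Slc40a1, Slc11a1 and Fth1 and raised Tfrc, Hfe and Aco1 in both genotypes. In KO macrophages 9 members passed the threshold, against 30.3% of all genes, with 5 higher (16.0% of all genes) and 4 lower (14.2%). In WT macrophages 6 members passed, against 26.7% of all genes, with 3 higher (13.6%) and 3 lower (13.0%). Ftl1, Ncoa4 and Ireb2 passed in KO and did not pass in WT, and the test of the difference between the genotypes is given with each gene. The groups did not overlap for 9 members in KO and 6 in WT, where 47.7% and 38.3% of all genes did not overlap. The comparisons share libraries with each other, so their calls are not separate evidence.

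**Figure D1:**
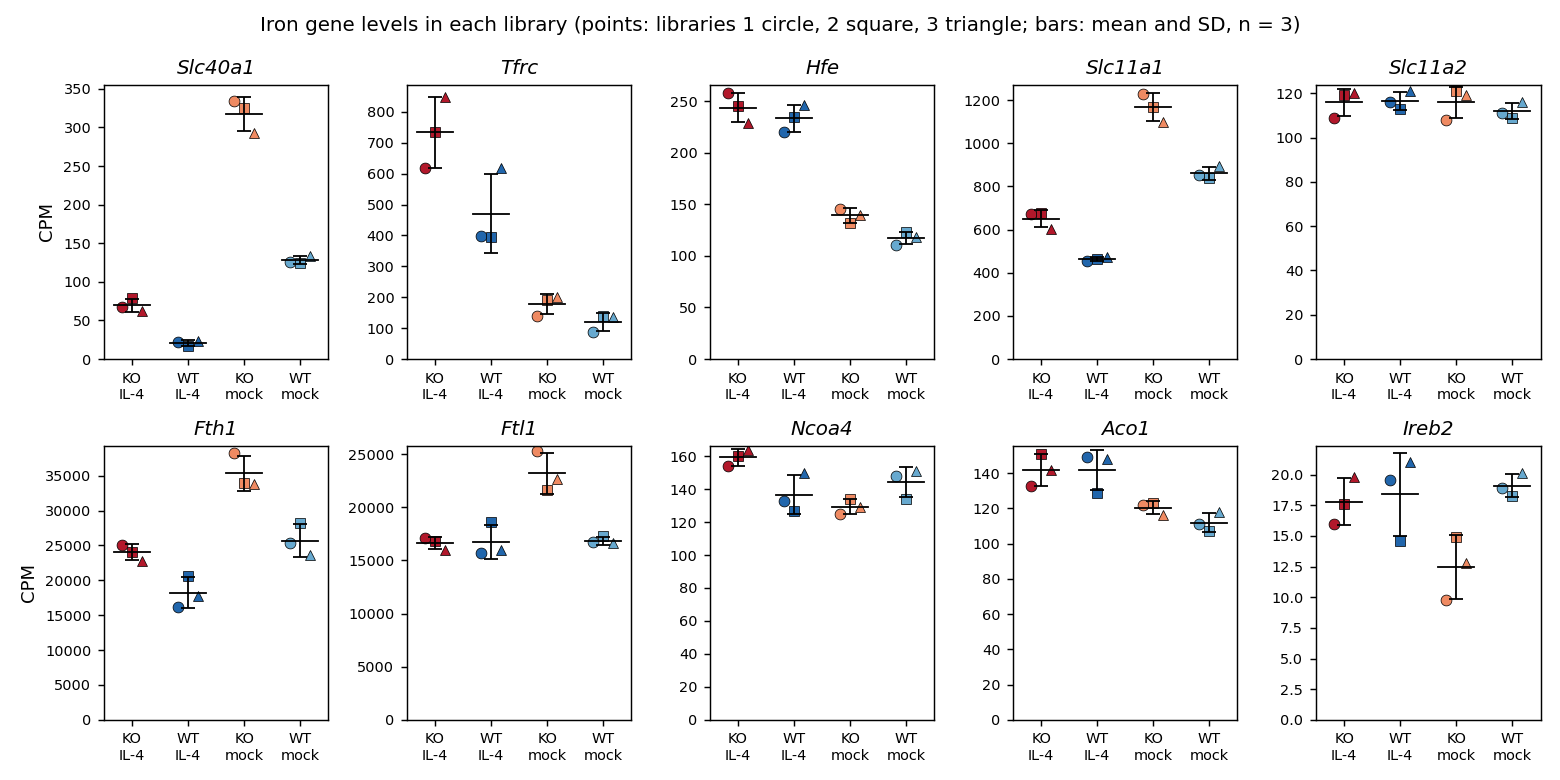
CPM of the 10 iron genes in each of the 12 libraries, with 1 panel per gene, an axis from 0, the groups KO IL-4, WT IL-4, KO mock and WT mock along the horizontal axis, and bars for the mean and SD of 3 libraries. The Slc40a1 libraries form 4 separate bands from 16.5 to 334 CPM, while the Slc11a2 libraries all lie between 108 and 121 CPM.

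**Figure D2:**
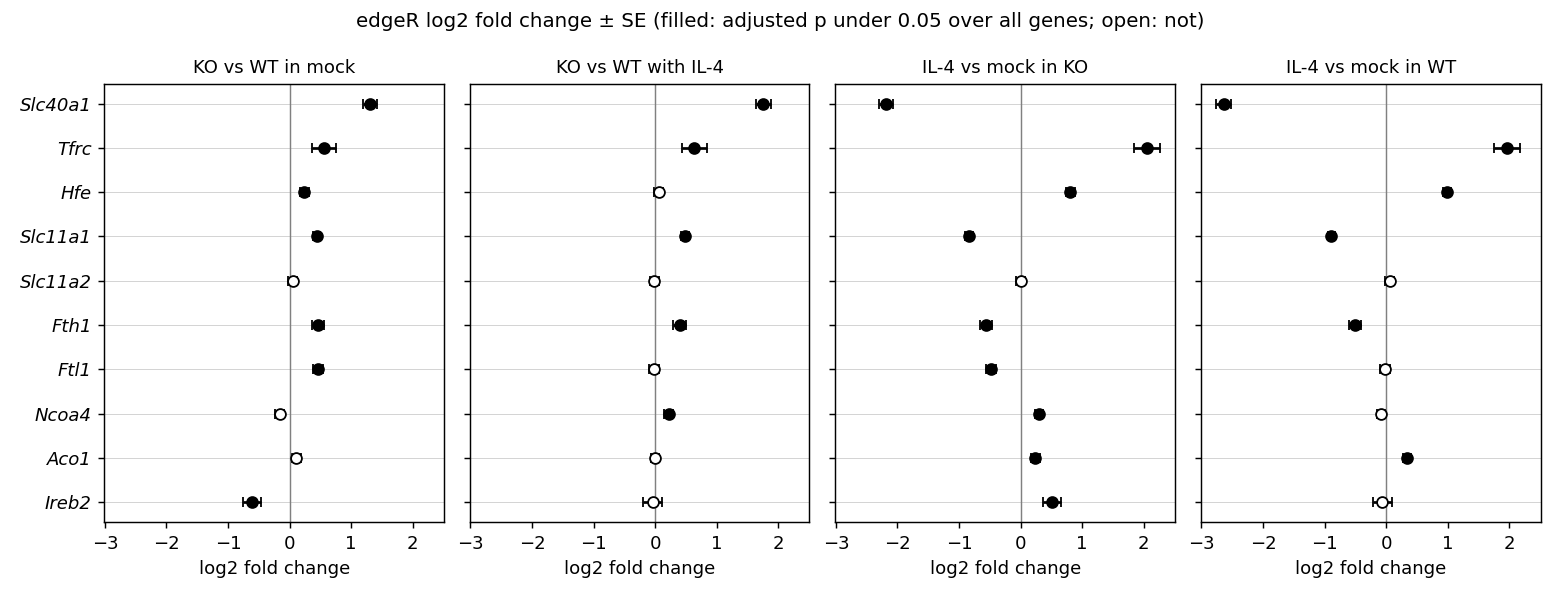
The edgeR log2 fold change of each member with its SE for KO against WT in mock, KO against WT with IL-4, KO IL-4 against KO mock and WT IL-4 against WT mock, with filled points for adjusted p under 0.05. Slc40a1 lies farthest to the right in both KO comparisons, at 1.31 and 1.76, and farthest to the left in both IL-4 comparisons, at -2.19 and -2.64.

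Slc40a1 (ENSMUSG00000025993.10, chr1:45908068-45926523, minus strand) encodes ferroportin. It stood at 67.4, 79.1 and 62.6 CPM in KO IL-4, at 22.1, 16.5 and 23.2 CPM in WT IL-4, at 334, 325 and 293 CPM in KO mock and at 126, 125 and 134 CPM in WT mock. No library of any group overlapped with another group, and KO mock was highest, followed by WT mock, KO IL-4 and WT IL-4. The KO libraries were 2.48-fold higher than the WT libraries in mock (log2 fold change 1.31, SE 0.11, adjusted p = 3.6e-06) and 3.39-fold higher with IL-4 (1.76, SE 0.12, adjusted p = 5.9e-07). IL-4 left KO macrophages 4.55-fold lower than KO mock (-2.19, SE 0.11, adjusted p = 4e-09) and WT macrophages 6.22-fold lower than WT mock (-2.64, SE 0.12, adjusted p = 7.9e-10). The messenger thus fell with IL-4 in both genotypes and stayed above WT in KO.

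The library titles carry a number and do not say what it stands for. Here a culture means the mock and IL-4 libraries of a genotype with the same number, a pairing drawn from correlations between libraries. By culture, the Slc40a1 ratio of IL-4 to mock was 0.202, 0.243 and 0.214 in KO and 0.176, 0.132 and 0.173 in WT. Every KO culture therefore kept a larger share of its mock level than every WT culture. The KO and WT cultures lay apart, in either direction, for 6 of the 10 members and for 32.1% of all genes. The KO ratios were the higher ones for Slc40a1, Ncoa4 and Ireb2 and the lower ones for Hfe, Slc11a2 and Ftl1. The interaction was 0.45 (SE 0.16, adjusted p = 0.16), and with the cultures as a replicate block it was 0.46 (SE 0.11, adjusted p = 0.019). With a correction for gene length it was 0.24 (adjusted p = 0.43).

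Tfrc (ENSMUSG00000022797.16, chr16:32608920-32632794, plus strand) encodes transferrin receptor 1, which carries iron-loaded transferrin into endosomes. It stood at 617, 736 and 848 CPM in KO IL-4, at 399, 394 and 619 CPM in WT IL-4, at 140, 191 and 201 CPM in KO mock and at 87.7, 139 and 136 CPM in WT mock. All 6 IL-4 libraries were above all 6 mock libraries. KO and WT overlapped with IL-4, where the third WT library was above the lowest KO library, and in mock the lowest KO library stood just above the highest WT library. IL-4 raised Tfrc 4.13-fold in KO (log2 fold change 2.05, SE 0.21, adjusted p = 3.8e-06) and 3.9-fold in WT (1.96, SE 0.21, adjusted p = 5.3e-06). The interaction was 0.08 (95% interval -0.52 to 0.69, adjusted p = 0.9).

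The KO against WT difference of Tfrc was smaller, at 0.56 in mock (SE 0.20, adjusted p = 0.046) and 0.64 with IL-4 (SE 0.20, adjusted p = 0.038). Both calls lay close to the threshold. The authors' deposited table gives 0.0517 as the adjusted p-value in mock and 0.0358 with IL-4, and without the KO libraries numbered 2 the values here were 0.527 (adjusted p = 0.12) in mock and 0.643 (adjusted p = 0.11) with IL-4. Single libraries decided them as well: without 1 library the adjusted p reached 0.17 in mock (without WT mock library 1) and 0.15 with IL-4 (without WT IL-4 library 1).

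The exporter and the import receptor moved in opposite directions with IL-4, so their ratio changed more than either gene. The CPM of Slc40a1 over that of Tfrc was 0.109, 0.107 and 0.0738 in KO IL-4, 0.0555, 0.0419 and 0.0374 in WT IL-4, 2.38, 1.70 and 1.45 in KO mock and 1.43, 0.898 and 0.986 in WT mock. Each KO library was above each WT library of the same condition, and every IL-4 library was below every mock library. Per kilobase of exon the ratio was 1.63 and 1.17 in KO mock libraries 1 and 2 and at most 0.999 in each of the other 10 libraries.

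Hfe (ENSMUSG00000006611.15, chr13:23702034-23710854, minus strand) encodes an MHC class I-like protein that binds transferrin receptor 1 and is mutated in hereditary hemochromatosis of humans. It stood at 258, 245 and 229 CPM in KO IL-4, at 220, 235 and 246 CPM in WT IL-4, at 146, 132 and 140 CPM in KO mock and at 111, 123 and 118 CPM in WT mock. All IL-4 libraries lay above all mock libraries, and the genotypes separated in mock but overlapped with IL-4. IL-4 raised it 1.75-fold in KO (log2 fold change 0.81, SE 0.07, adjusted p = 7.3e-07) and 1.99-fold in WT (0.99, SE 0.07, adjusted p = 8.4e-08). KO was 1.18-fold higher than WT in mock (0.24, SE 0.07, adjusted p = 0.015), which became an adjusted p of 0.052 without KO mock library 1. With IL-4 the difference was 0.06 (95% interval -0.09 to 0.21, adjusted p = 0.6), and the interaction was -0.18 (95% interval -0.39 to 0.03, adjusted p = 0.33).

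Slc11a1 (ENSMUSG00000026177.11, chr1:74375195-74386062, plus strand) encodes NRAMP1, which moves iron and manganese across the phagosome membrane of macrophages. It stood at 673, 675 and 604 CPM in KO IL-4, at 455, 464 and 472 CPM in WT IL-4, at 1230, 1170 and 1100 CPM in KO mock and at 852, 838 and 895 CPM in WT mock. The 4 groups again did not overlap and had the order of Slc40a1, with steps of smaller size. KO was higher by 0.44 on the log2 scale in mock (SE 0.06, adjusted p = 0.00022) and by 0.49 with IL-4 (SE 0.06, adjusted p = 0.00013). IL-4 left KO macrophages lower, at -0.84 on the log2 scale (SE 0.06, adjusted p = 2.3e-07) and WT macrophages by -0.89 (SE 0.06, adjusted p = 1.1e-07). The interaction was 0.05 (95% interval -0.14 to 0.25, adjusted p = 0.79).

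Slc11a2 (ENSMUSG00000023030.16, chr15:100387898-100425072, minus strand) encodes DMT1, the transporter that takes ferrous iron out of endosomes after transferrin uptake. Its level was 109, 119 and 120 CPM in KO IL-4, 116, 113 and 121 CPM in WT IL-4, 108, 121 and 119 CPM in KO mock and 111, 109 and 116 CPM in WT mock. All 4 groups overlapped. No contrast called it: KO against WT was 0.05 in mock (95% interval -0.09 to 0.20, adjusted p = 0.57) and -0.01 with IL-4 (-0.15 to 0.13, adjusted p = 0.94), and IL-4 against mock was -0.00 in KO (-0.14 to 0.14, adjusted p = 0.99) and 0.06 in WT (-0.08 to 0.21, adjusted p = 0.54). The length correction turned the mock genotype difference into 0.228 (adjusted p = 0.0062).

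Fth1 (ENSMUSG00000024661.7, chr19:9980598-9985098, plus strand), the heavy chain that oxidises ferrous iron, and Ftl1 (ENSMUSG00000050708.16, chr7:45457944-45459884, minus strand), the light chain that aids mineral formation, were among the 8 genes with the most counts in every library. Fth1 stood at 25100, 24100 and 22800 CPM in KO IL-4, at 16200, 20600 and 17800 CPM in WT IL-4, at 38200, 34000 and 33800 CPM in KO mock and at 25300, 28200 and 23600 CPM in WT mock. KO libraries lay above WT libraries within each condition, and IL-4 libraries lay below mock libraries within each genotype. KO was higher by 0.46 in mock (SE 0.10, adjusted p = 0.0025) and by 0.40 with IL-4 (SE 0.10, adjusted p = 0.01), both log2. With IL-4, Fth1 fell by 0.56 in KO (SE 0.10, adjusted p = 0.00056) and by 0.50 in WT (SE 0.10, adjusted p = 0.0014), and the interaction was -0.06 (95% interval -0.35 to 0.23, adjusted p = 0.84).

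Ftl1 stood at 17100, 16800 and 16000 CPM in KO IL-4, at 15700, 18600 and 16000 CPM in WT IL-4, at 25300, 21600 and 22700 CPM in KO mock and at 16700, 17300 and 16600 CPM in WT mock. The 3 KO mock libraries were above all others, and the remaining 9 libraries overlapped. KO was higher in mock (log2 fold change 0.46, SE 0.08, adjusted p = 0.00086), and with IL-4 the difference was -0.01 (95% interval -0.19 to 0.17, adjusted p = 0.95). IL-4 lowered Ftl1 in KO (-0.48, SE 0.08, adjusted p = 0.00051), while the WT value was -0.01 (95% interval -0.19 to 0.17, adjusted p = 0.94).

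By culture, IL-4 left 0.674, 0.777 and 0.705 of the mock Ftl1 level in KO and 0.939, 1.07 and 0.963 in WT. The KO cultures were all below the WT cultures. The interaction of Ftl1 was -0.47 (SE 0.12, adjusted p = 0.073), with the replicate block -0.46 (SE 0.08, adjusted p = 0.0031), with the block and the length correction together -0.388 (adjusted p = 0.012), and by DESeq2 -0.479 (adjusted p = 0.0026).

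The 2 ferritin chains thus stood in different proportions in 1 of the 4 groups. The count ratio of Fth1 to Ftl1 was 1.47, 1.44 and 1.42 in KO IL-4, 1.03, 1.11 and 1.12 in WT IL-4, 1.51, 1.58 and 1.49 in KO mock and 1.51, 1.63 and 1.42 in WT mock. The WT IL-4 libraries lay below all 9 others. Together both genes took 3.93% to 4.25% of all counts in KO IL-4, 3.27% to 3.92% in WT IL-4, 5.47% to 5.98% in KO mock and 4.06% to 4.58% in WT mock. Processed copies of ferritin genes (Ftl1-ps1, Ftl1-ps2, Ftl2-ps and Fth-ps3) held counts equal to 1.22% to 1.47% of those of Fth1 and Ftl1, and the sources used here do not say how reads matching several places were counted. Per kilobase of the deposited exon length, 3469 bases for Fth1 and 1340 for Ftl1, Ftl1 was the higher of both in every library. By counts Fth1 was the higher, so this order rests on those lengths.

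**Figure D3:**
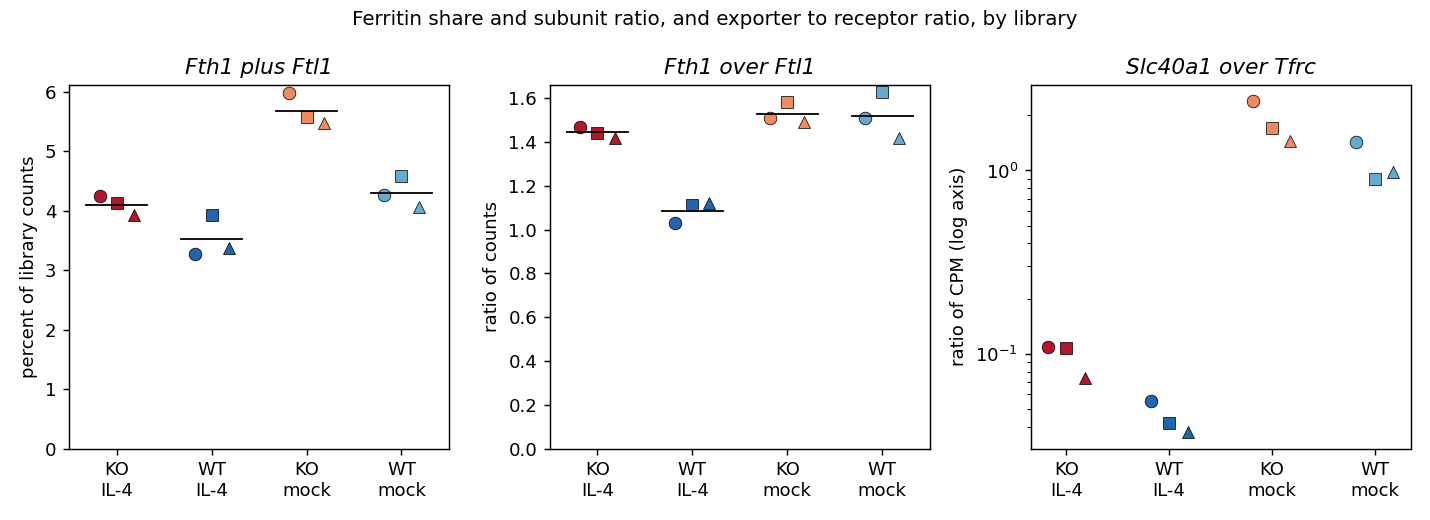
For each library of KO IL-4, WT IL-4, KO mock and WT mock (number 1 circle, 2 square, 3 triangle), the summed share of counts of Fth1 and Ftl1 in percent, the count ratio of Fth1 to Ftl1, and the CPM ratio of Slc40a1 to Tfrc on a log axis, with lines for means in the first 2 panels. The ferritin chain ratio is 1.03 to 1.12 in WT IL-4 and at least 1.42 elsewhere, and the exporter to receptor ratio runs from 0.0374 in WT IL-4 to 2.38 in KO mock.

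Ncoa4 (ENSMUSG00000056234.15, chr14:32159865-32179855, plus strand) encodes the receptor that delivers ferritin to lysosomes, where its iron is freed. It stood at 154, 160 and 164 CPM in KO IL-4, at 133, 127 and 150 CPM in WT IL-4, at 125, 134 and 129 CPM in KO mock and at 148, 134 and 151 CPM in WT mock. KO libraries were all above WT libraries with IL-4, while the genotypes overlapped in mock. IL-4 raised Ncoa4 in KO by 0.30 (SE 0.07, adjusted p = 0.0062), and the WT value was -0.08 (95% interval -0.24 to 0.08, adjusted p = 0.47). KO against WT was 0.22 with IL-4 (SE 0.07, adjusted p = 0.047) and -0.16 in mock (95% interval -0.31 to -0.00, adjusted p = 0.11).

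By culture, the log2 change of Ncoa4 with IL-4 was 0.30, 0.26 and 0.34 in KO and -0.15, -0.08 and -0.01 in WT. All 3 KO cultures rose and all 3 WT cultures were at or below their mock level. The interaction was 0.38 (SE 0.10, adjusted p = 0.093), with the replicate block 0.38 (SE 0.08, adjusted p = 0.0092), by DESeq2 0.372 (adjusted p = 0.022) and with the length correction 0.161 (adjusted p = 0.38). The length correction took away the IL-4 call in KO (0.104, adjusted p = 0.22) and gave a mock genotype difference of the other sign, 0.133 (adjusted p = 0.12). Without the KO libraries numbered 2 the genotype difference with IL-4 was 0.221 (adjusted p = 0.14). That call was lost in 11 of 22 alternatives, among them library size alone (adjusted p = 0.057) and the fit of the compared groups (adjusted p = 0.061).

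Aco1 (ENSMUSG00000028405.9, chr4:40143081-40198338, plus strand) encodes IRP1, which is cytosolic aconitase when it holds an iron-sulfur cluster and an RNA-binding protein when it does not. It stood at 133, 151 and 142 CPM in KO IL-4, at 149, 129 and 148 CPM in WT IL-4, at 122, 123 and 116 CPM in KO mock and at 111, 107 and 118 CPM in WT mock. Within each genotype the IL-4 libraries lay above the mock libraries, and the genotypes overlapped under both conditions. IL-4 raised it by 0.24 in KO (SE 0.07, adjusted p = 0.025) and by 0.34 in WT (SE 0.07, adjusted p = 0.0027). The KO call was lost without the KO libraries numbered 2 (0.209, adjusted p = 0.14). It was also lost without KO mock library 1 (adjusted p = 0.051) or 3 (0.088), or KO IL-4 library 2 (0.11) or 3 (0.075). KO against WT was 0.11 in mock (95% interval -0.05 to 0.26, adjusted p = 0.29) and -0.00 with IL-4 (-0.16 to 0.15, adjusted p = 0.99).

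Ireb2 (ENSMUSG00000032293.8, chr9:54863789-54912530, plus strand) encodes IRP2, whose amount is set by iron-dependent degradation of the protein. It was the lowest of the 10 members in CPM, at 297 to 784 counts a library. Its level was 16.0, 17.6 and 19.8 CPM in KO IL-4, 19.6, 14.6 and 21.0 CPM in WT IL-4, 9.74, 14.9 and 12.8 CPM in KO mock and 18.9, 18.3 and 20.1 CPM in WT mock. The KO mock libraries were below the WT mock and KO IL-4 libraries, and the WT IL-4 libraries spanned a range that reached into KO mock. Ireb2 fell in KO mock relative to WT mock by 0.61 (SE 0.15, adjusted p = 0.0073). With IL-4 the difference was -0.04 (95% interval -0.37 to 0.28, adjusted p = 0.89).

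IL-4 raised Ireb2 in KO by 0.51 (SE 0.15, adjusted p = 0.021), and the WT value was -0.06 (95% interval -0.38 to 0.26, adjusted p = 0.83). The KO call was lost without KO mock library 1 (adjusted p = 0.094), KO IL-4 library 2 (adjusted p = 0.053) or KO IL-4 library 3 (adjusted p = 0.098). The culture changes were 0.72, 0.24 and 0.63 in KO and 0.05, -0.33 and 0.06 in WT, so the KO cultures were all above the WT cultures. The interaction was 0.57 (SE 0.21, adjusted p = 0.18) and with the replicate block 0.59 (SE 0.15, adjusted p = 0.022). Ireb2 has the longest exon length of the members, 9479 bases, and with the length correction the mock genotype difference was -0.326 (adjusted p = 0.043), the KO change with IL-4 was 0.319 (adjusted p = 0.048) and the interaction was 0.361 (adjusted p = 0.27).

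For the interaction edgeR called none of the 10 members, against 0.736% of all genes. DESeq2 called 2 (5.48% of all genes), the replicate block 4 (11.6% of all genes) and the block with the length correction 1 (8.11% of all genes), which was Ftl1. The 4 members called with the block were Slc40a1, Ncoa4 and Ireb2, where the KO change was the higher one, and Ftl1, where it was the lower one. Since both KO libraries numbered 2 stood apart, the values without them are given for the calls that held. For KO against WT they were 1.31 in mock and 1.66 with IL-4 for Slc40a1, 0.458 and 0.465 for Slc11a1 and 0.508 and 0.399 for Fth1, and in mock 0.533 for Ftl1, 0.303 for Hfe and -0.735 for Ireb2. For IL-4 in KO they were -2.27 for Slc40a1, 2.1 for Tfrc, 0.77 for Hfe, -0.868 for Slc11a1, -0.587 for Fth1, -0.538 for Ftl1, 0.324 for Ncoa4 and 0.667 for Ireb2. The adjusted p of these 17 values was at most 0.035.

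The interaction log2 fold change was related to gene length over all genes (Spearman rho 0.33 over 13715 genes), as was KO against WT in mock (-0.29); both values are descriptions across genes, which are not independent replicates.

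**Figure D4:**
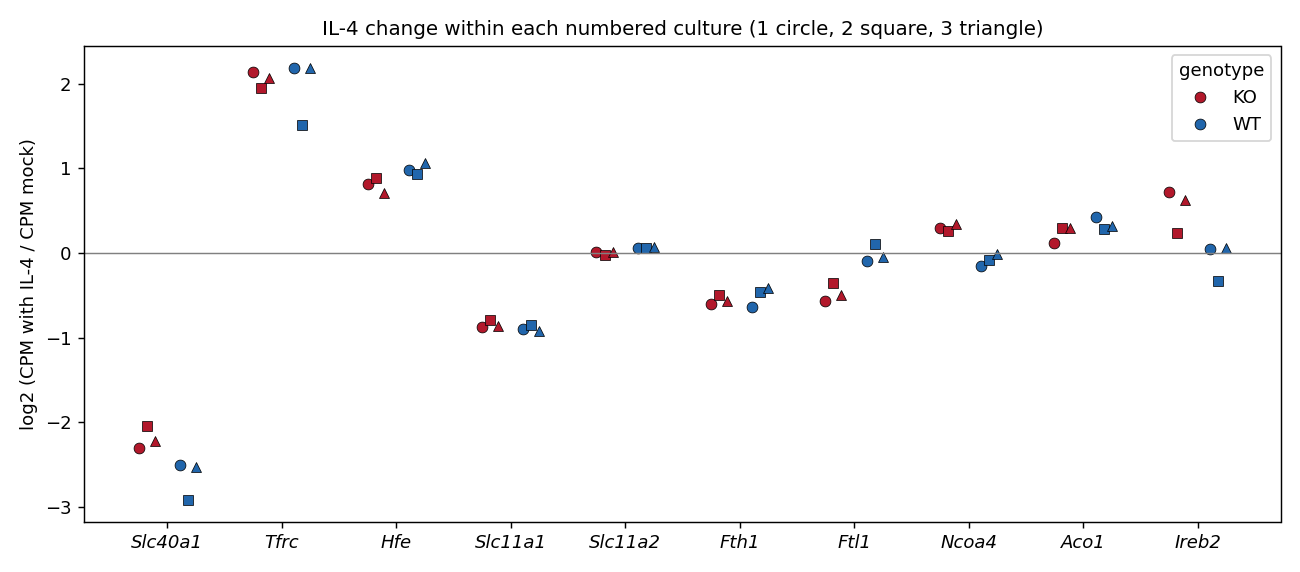
The log2 ratio of IL-4 to mock CPM of each member within each numbered culture, KO cultures left of WT cultures, with number 1 as a circle, 2 as a square and 3 as a triangle. KO and WT cultures lie apart for Slc40a1, Hfe, Slc11a2, Ftl1 (-0.57 to -0.36 in KO and -0.09 to 0.10 in WT), Ncoa4 (0.26 to 0.34 in KO and -0.15 to -0.01 in WT) and Ireb2 (0.24 to 0.72 in KO and -0.33 to 0.06 in WT), as they do for 32.1% of all genes.

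Per kilobase of exon, Tfrc averaged 119 ± 18.7 CPM per kb in KO IL-4, 76.1 ± 20.8 in WT IL-4, 28.7 ± 5.27 in KO mock and 19.5 ± 4.63 in WT mock (SD, n = 3 here and below). Slc40a1 averaged 7.75 ± 0.94 CPM per kb in KO IL-4, 2.29 ± 0.399 in WT IL-4, 35.3 ± 2.40 in KO mock and 14.2 ± 0.558 in WT mock. By group means the exporter thus lay above the receptor in KO mock and below it in the other 3 groups. Single libraries came close to equal, with 32.5 for Slc40a1 and 32.6 for Tfrc in KO mock library 3. In WT mock library 1 the ratio of Slc40a1 to Tfrc was 0.985. The mean of Slc40a1 in WT IL-4 was near that of Ireb2 (1.94 ± 0.357). In WT mock the order of all members ran from Ftl1 (12600 ± 293 CPM per kb) over Fth1 (7410 ± 672), Slc11a1 (233 ± 8.09), Hfe (32.9 ± 1.64), Aco1 (24.9 ± 1.29), Tfrc, Slc11a2 (17.6 ± 0.566), Ncoa4 (15.4 ± 0.99) and Slc40a1 to Ireb2 (2.02 ± 0.0972). Tfrc lay within its spread of both Slc11a2 and Ncoa4, and Ncoa4 and Slc40a1 lay within their spread of each other.

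The genes whose log2 CPM followed each member most closely over the 12 libraries were listed as a description from 7964 genes with a mean log2 CPM of at least 3. Slc40a1 and Slc11a1 were among each other's 3 closest genes (Pearson r = 0.99). Among the 3 closest genes to Tfrc were Ankrd40 (0.983) and Rars (0.977). Hfe was closest to Auh (0.991), Fth1 to Ninj1 and to Map1lc3b (0.987 each), of which Map1lc3b encodes the autophagosome protein LC3B, and Ftl1 to Prdx5 and its own processed copy Ftl1-ps1 (0.979 each). Ncoa4 was closest to Igsf6 (0.949), Aco1 to Snd1 (0.973) and Ireb2 to Ppp6r3 (0.982). Slc11a2 had the weakest match, Kctd7 (0.868). The points of each r are the same 12 libraries and fall into 4 groups.

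The other genes of iron and heme handling were counted in 6 lists holding 95 genes, of which 77 were measured (Ciao3 under its older symbol Narfl). In KO mock against WT mock 29 rose and 10 fell, with a median of 0.19, and in KO IL-4 against WT IL-4 10 rose and 5 fell, with a median of 0.05. With IL-4, 9 rose and 17 fell in KO (median -0.10), and 17 rose and 13 fell in WT (median 0.01). The KO split depended on the scaling, with 12 higher and 11 lower by library size alone and 7 higher and 25 lower with the length correction. All genes shifted the same way, with 2513 higher and 1493 lower by library size alone and 1777 higher and 3021 lower with the length correction. Without both KO libraries numbered 2, 9 genes were called between KO and WT with IL-4 and 16 between KO IL-4 and KO mock. Over all genes the calls without them were 715 higher and 881 lower between the genotypes, beside 1176 and 1403 in the full fit. For IL-4 in KO they were 1620 higher and 1312 lower, beside 2198 and 1954. Between KO and WT, 39 of the 77 genes were called in mock and 15 with IL-4, beside 34.5% and 18.8% of all genes. For IL-4 against mock, 26 were called in KO and 30 in WT, beside 30.3% and 26.7% of all genes. The counts of single lists below are to be read beside the same backgrounds, which by direction were 15.7% higher and 18.8% lower in KO mock than in WT mock, 8.57% and 10.2% for the same genotypes with IL-4, 16.0% and 14.2% for IL-4 in KO, and 13.6% and 13.0% for IL-4 in WT. With 9 to 20 measured genes a list, several counts lie near them. Genes named below beyond the 3 with the smallest adjusted p of a list and comparison were chosen after their values were seen.

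Heme breakdown, uptake and transport was led by Hmox1, heme oxygenase 1, which cuts heme and frees its iron. It stood at 1200, 1330 and 1060 CPM in KO IL-4, at 593, 614 and 579 CPM in WT IL-4, at 1360, 1450 and 1390 CPM in KO mock and at 612, 748 and 701 CPM in WT mock. Every KO library was above every WT library, by 1.03 on the log2 scale in mock (SE 0.09, adjusted p = 3.4e-06) and 1.01 with IL-4 (SE 0.09, adjusted p = 4.5e-06). Of 11 measured genes of this list 5 rose and 2 fell in KO mock: Slc48a1 (0.62, SE 0.07), Slc46a1 (0.60, SE 0.09), Blvrb (0.39) and Hmox2 (0.33) rose with Hmox1, and Lrp1 (-1.21, SE 0.13), the receptor for hemopexin-bound heme, and Cd163 (-1.69, SE 0.60), the receptor for hemoglobin with haptoglobin, fell. Cd163 was at or under 0.449 CPM in every library. With IL-4, Hmox1 rose and Lrp1 fell (-0.65, SE 0.13) in KO.

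Slc48a1, which moves heme out of the phagolysosome, stood at 1050, 1070 and 1010 CPM in KO IL-4, at 947, 1060 and 965 CPM in WT IL-4, at 1200, 1090 and 1080 CPM in KO mock and at 718, 759 and 710 CPM in WT mock. The WT mock libraries were below all others. IL-4 raised it in WT (log2 fold change 0.44, SE 0.06, adjusted p = 0.00013), the KO value was -0.10 (SE 0.06, adjusted p = 0.26), and the interaction of -0.54 passed the threshold (SE 0.09, adjusted p = 0.023). Leaving out single libraries gave an adjusted p for this interaction of up to 0.071, and leaving out the KO libraries numbered 2 gave 0.087. Slc46a1, a heme and folate transporter, fell with IL-4 in KO (-1.20, SE 0.10, adjusted p = 3.1e-07) and in WT (-0.86, SE 0.10, adjusted p = 8.9e-06).

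In heme synthesis, Alas1, the first and rate-limiting enzyme, rose with IL-4 in KO (0.68, SE 0.07, adjusted p = 2.7e-06) and in WT (0.71, SE 0.07, adjusted p = 1.6e-06), at 661 to 751 CPM in KO IL-4, 707 to 780 in WT IL-4, 432 to 462 in KO mock and 433 to 471 in WT mock. Of the 10 measured genes 4 rose in KO mock, among them Uros (0.32), Tspo (0.29) and Urod (0.24), and none fell. With IL-4 none rose and 2 fell in KO, Alad (-0.30, SE 0.10, adjusted p = 0.04) and Tspo (-0.21, SE 0.07, adjusted p = 0.049). Both calls were lost without the KO libraries numbered 2 (adjusted p = 0.13 for Alad and 0.14 for Tspo) and without several single libraries, where the adjusted p reached 0.14 for Alad and 0.17 for Tspo, each without WT IL-4 library 2. Tspo, a mitochondrial outer membrane protein, had an interaction of -0.51 (SE 0.10, adjusted p = 0.038). Leaving out single libraries gave an adjusted p of up to 0.1 for the Tspo interaction, and scaling by library size alone gave 0.052.

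Among reductases, oxidases, chaperones and other transporters, 4 of 13 measured genes rose and 2 fell in KO mock, and 5 rose and 1 fell with IL-4. Trf, transferrin itself, was higher in KO in mock (0.60, SE 0.08, adjusted p = 0.00012) and with IL-4 (0.51, SE 0.08, adjusted p = 0.00055), and IL-4 raised it in KO (0.57) and in WT (0.66). Its libraries lay at 223 to 238 CPM in KO IL-4, 147 to 182 in WT IL-4, 151 to 168 in KO mock and 96.8 to 108 in WT mock. Steap3, the ferrireductase of endosomes, fell in KO in mock (-0.57, SE 0.07, adjusted p = 3.7e-05) and with IL-4 (-0.52, SE 0.07, adjusted p = 9.4e-05), and the lysosomal cation channel gene Mcoln1 rose (0.41 in mock and 0.36 with IL-4). Lcn2, a siderophore-binding protein that was also in the neutrophil list, rose in KO (1.52, SE 0.44, in mock and 1.88, SE 0.45, with IL-4).

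With IL-4, Cisd1, an iron-sulfur protein of the mitochondrial outer membrane, rose in KO (1.19, SE 0.09, adjusted p = 2.2e-07) and in WT (1.11, SE 0.09, adjusted p = 4.1e-07). Cp, the ferroxidase ceruloplasmin, rose in KO (2.97, SE 0.45) and in WT (2.40, SE 0.39) at low levels, 1.37 to 1.78 CPM in KO IL-4, 2.30 to 2.87 in WT IL-4, 0.0276 to 0.361 in KO mock and 0.266 to 0.673 in WT mock. Slc39a8, a metal importer, fell in KO (-1.14) and in WT (-1.20, SE 0.18, adjusted p = 0.00017).

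Of 14 measured genes of hepcidin signalling and iron sensing 4 rose and 5 fell in KO mock. Spic, the transcription factor of red pulp macrophages, rose in KO in mock (1.43, SE 0.27, adjusted p = 0.0011) and with IL-4 (1.29, SE 0.29, adjusted p = 0.0057), at 1.51 to 2.03 CPM in KO IL-4, 0.583 to 0.798 in WT IL-4, 2.05 to 3.78 in KO mock and 0.764 to 1.38 in WT mock. Smad6, an inhibitor of BMP signalling, rose in KO in mock (1.30, SE 0.22, adjusted p = 0.00048) and with IL-4 (1.37, SE 0.23, adjusted p = 0.00085), and Rnf217, a ubiquitin ligase that acts on ferroportin in mice, rose by 0.33 in mock and 0.40 with IL-4. The 5 that fell in KO mock were Smad7 (-0.83, SE 0.15), Epas1 (-0.81), Smad5 (-0.56), Herc2 (-0.56) and Bach1 (-0.55), the heme-sensing repressor of Hmox1. IL-4 lowered 5 genes of this list and raised 2 in KO and lowered 4 in WT, among them Nedd4l (-0.44, SE 0.08, in KO and -0.54, SE 0.08, in WT). Hepcidin itself (Hamp) was not analysed here.

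Of 20 measured genes of mitochondrial iron and iron-sulfur assembly 7 rose and 1 fell in KO mock, including the assembly factors Isca2 (0.62, SE 0.09, adjusted p = 0.00015) and Glrx5 (0.67, SE 0.10, adjusted p = 0.00026), which rose. With IL-4, 1 rose in KO, Isca2 (0.36, SE 0.09), and 1 fell, Abcb8 (-0.29, SE 0.08). IL-4 raised 1 gene and lowered 7 in KO, led by the cochaperone Hscb (-0.87, SE 0.11), and raised 4 and lowered 3 in WT, where Abcb8 rose by 0.50 and Hscb fell by 0.55 (SE 0.11). In cytosolic iron-sulfur assembly 5 of 9 genes rose and none fell in KO mock, with Ciao1 (0.34), Ciapin1 (0.36) and Nubp2 (0.32) called at the smallest adjusted p. With IL-4 edgeR called none of the 9 between KO and WT.

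**Figure D5:**
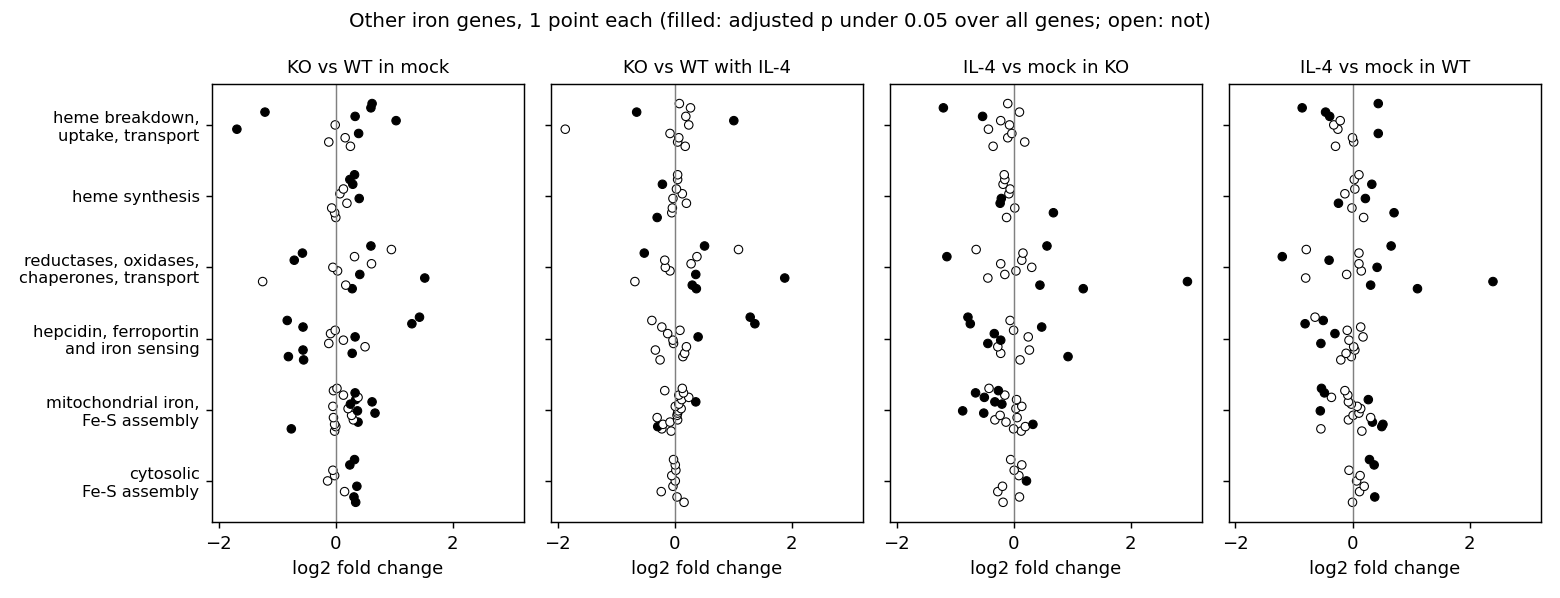
The log2 fold change of each of the 77 other iron genes, 1 point a gene, by list and in the order KO against WT in mock, KO against WT with IL-4, KO IL-4 against KO mock and WT IL-4 against WT mock, with filled points for adjusted p under 0.05. In KO mock 29 filled points lie right of 0 and 10 left of it, while 15 are filled for KO against WT with IL-4.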

How the data were processed

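Bulk RNA-seq counts of 12 mouse macrophage libraries were used. Per the labels' protocols, RNA was extracted with an RNeasy Micro kit. The submitters' processing notes name STAR 2.7.2b, bcl2fastq, edgeR and, from Subread 1.6.5, featureCounts, with build mm10 and no settings. The sources used here do not give library kit, strand setting or the handling of reads with several matches. The authors deposited 1 table with raw counts per gene and library and the exon length in bases of each gene. The same deposited table holds the authors' log2 fold changes and adjusted p-values, which appear here only where named. A further 24 columns of per-sample values were not used. Columns were matched to libraries by name, and groups came from the labels. Every gene had at least 50 counts over all libraries together, and none was removed.

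One edgeR 4.0.16 quasi-likelihood model (R 4.3.3, TMM scaling, 1 coefficient for each of 4 groups, 8 residual degrees of freedom) was fitted to 13715 genes, and p-values were adjusted by Benjamini-Hochberg over all of them within a comparison. A gene was called at an adjusted p under 0.05, and log2 fold changes carry an SE and a 95% interval from the same model. The labels do not say that libraries of a group came from separate animals, so p-values measure the spread between these libraries, which may be technical. Counts of replicate libraries differed by more than sampling noise, with a chi-square per degree of freedom of 10.6 to 84.6.

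The numbers of the libraries were checked for pairing on 8126 genes. Within a genotype, same-numbered mock and IL-4 libraries deviated together, with a correlation of 0.229 to 0.491 in WT and 0.518 to 0.579 in KO. Such a pair is called a culture here, though the titles do not state a shared origin. As an alternative, the culture was used as a replicate block for IL-4 and for the interaction. Between KO and WT the same numbers gave -0.319 to 0.175 within a condition and -0.457 to 0.129 across conditions, and were taken as names.

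The alternatives were other size factors, DESeq2 1.42.0, a filter at a mean of 1 CPM, no filter, fits of the compared groups alone, the block, a correction for gene length (a loess curve on log2 length in each library, span 0.5), both together, each library left out, and both KO libraries numbered 2 left out. Members, lists and alternatives were chosen with earlier results of these data known. The text names all members, Stk11, Lyz2, the 3 genes with the smallest adjusted p of a list and comparison, the 3 genes with the highest Pearson r to a member, ferritin copies, and further called genes of the lists, and a few genes that this rule names are not reported here. The statistics were tested on simulated counts. Sequences are from GENCODE M21 transcripts.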

Additional observations from a re-analysis of the deposited data

Results flagged for a closer look

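The change with IL-4 was tested for a difference between the genotypes. With cultures as a replicate block, the log2 change in KO minus that in WT was 0.46 for Slc40a1, -0.46 for Ftl1, 0.38 for Ncoa4 and 0.59 for Ireb2, each past an adjusted p of 0.05 in edgeR with the block and none past it without the block. The block called 11.6% of all genes. With the block and the length correction together, Ftl1 was called and the other 3 were not (Slc40a1 0.245, Ncoa4 0.163 and Ireb2 0.372). Without the block, the difference was -0.54 for the heme transporter gene Slc48a1 and -0.51 for Tspo, both past the threshold in edgeR, with 1 or more single libraries whose removal ended each call.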

How the results depend on the processing

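Of 50 member values (10 members in 4 comparisons and the interaction), 28 kept their direction and their side of the threshold under all alternatives run. Without both KO libraries numbered 2, the members called between KO and WT with IL-4 numbered 3 rather than 5 (3 to 5 without single libraries), the other iron genes 9 rather than 15 (9 to 19 without single libraries), and those called for IL-4 in KO 16 rather than 26. Over all genes the same omission left 715 higher and 881 lower rather than 1176 and 1403 between the genotypes with IL-4. For IL-4 in KO it left 1620 higher and 1312 lower rather than 2198 and 1954, and for the interaction 0 calls. For the interaction, DESeq2 called 2 members, the replicate block 4, and the block with the length correction 1. Among the other iron genes the interaction count of 2 became 1 with library size alone, 7 with DESeq2 and 4 with the CPM filter. It was 13 with the block, 5 with the length correction, 9 with both, 0 without both KO libraries numbered 2, and 0 to 3 without single libraries. The interaction share of all genes moved too, from 0.736% to 5.48% with DESeq2, 11.6% with the block and 8.11% with both. Over all genes, library size alone called 41 higher and 24 lower, the CPM filter 58 and 84, and the length correction 35 and 97. The replicate block changed no member call for IL-4 in either genotype. Used for KO against WT, where numbers do not pair libraries, it left the member calls at 7 in mock and 5 with IL-4 and the other iron genes at 38 and 14. Over all genes it then called 2039 higher and 2565 lower in mock, and 1140 and 1356 with IL-4. Some values that were not called changed sign. Tfrc had an interaction of -0.0483 with the length correction and -0.0475 with both, and -0.0704 to 0.317 without single libraries. Slc11a2 had -0.00418 for KO against WT in mock by library size, and with IL-4 0.00384 in a fit of those groups, 0.0187 with length, 0.0183 with both and -0.0346 to 0.0471 without single libraries. For IL-4 in KO, Slc11a2 had 0.0534 by library size, 0.00958 with the CPM filter, 0.00881 in a fit of those groups, 0.0115 without both KO libraries numbered 2 and -0.0546 to 0.0518 without single libraries. Fth1 had an interaction of 0.00265 by library size and -0.154 to 0.0349 without single libraries. Ftl1 for KO against WT with IL-4 had 0.00479 in a fit of those groups, 0.00127 with length, 0.00131 with both and -0.046 to 0.0696 without single libraries, and for IL-4 in WT 0.0144 with the CPM filter, 0.00747 without both KO libraries numbered 2 and -0.0918 to 0.051 without single libraries. Ncoa4 for KO against WT in mock had 0.133 with length and 0.134 with both. Aco1 for KO against WT with IL-4 had 0.00605 with DESeq2 size factors, 0.00125 by library size, 0.00613 with DESeq2, 0.00259 with the CPM filter, 0.0139 in a fit of those groups, 0.0127 with length, 0.0134 with both and -0.064 to 0.0598 without single libraries. Ireb2 for KO against WT with IL-4 had 0.0356 with length, 0.0329 with both and -0.186 to 0.0732 without single libraries, and for IL-4 in WT -0.146 to 0.0845. Mms19, called for IL-4 in KO at 0.22, had -0.0009 with length (adjusted p = 0.99), so that this call was lost. The cause of these moves was not tested. Library size alone moved the interaction median of all genes to 0.10, against 0.04. Low counts limit Ireb2, Spic, Cp and Cd163, and 3 libraries a group limit every value.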

Other observations

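Some markers of cells other than macrophages moved with genotype. Of 6 fibroblast and stromal markers 3 were measured and none was called between KO and WT, and no lymphocyte marker was measured. Of the 13 measured neutrophil markers, 11 rose and 1 fell in KO mock against WT mock, and 9 rose and none fell with IL-4. Of all genes, 15.7% rose and 18.8% fell in mock, and 8.57% and 10.2% with IL-4. The marker counts below are to be read beside the same shares. The 3 measured megakaryocyte and platelet markers, led by Pf4, summed to 513 to 601 CPM in KO IL-4, 41.1 to 63.7 in WT IL-4, 574 to 646 in KO mock and 39.8 to 57.8 in WT mock, with 2 of the 3 called higher in KO under both conditions. Ppbp and Itga2b were at or under 1.71 CPM in every library, so the sum was almost all Pf4. The summed level of the 3 measured dendritic cell markers, mostly Itgax, was 398 to 539 CPM in KO IL-4, 1040 to 1350 in WT IL-4, 43.3 to 70.3 in KO mock and 198 to 232 in WT mock. Of these 3, 1 was called lower in KO and none higher under both conditions. The part of all these markers in the iron gene values was not tested.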
